A study of Mus musculus with 24 samples.

Results

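The immediate early genes of neuronal activity examined here were 10 genes, Fos, Fosb, Junb, Egr1, Egr2, Egr4, Arc, Npas4, Nr4a1 and Dusp1. They were taken by symbol from the 55469 rows of the brain table, and all 10 were found there. All 10 passed the minimum of a mean of 10 normalised counts in brain, as did 19228 genes in total. In liver, used as the contrast, 5 of the 10 passed that minimum. RNA-seq of total RNA was carried out on brain and liver of male C57BL/6N mice of 4 genotypes, wild type (WT) and 3 mutant lines. The first line was homozygous for a deletion of tRNA-Phe-GAA-1-1 (tRNA-Phe-1-1-/- below), the second for a deletion of tRNA-Phe-GAA-2-1 (tRNA-Phe-2-1-/-) and the third for a deletion of tRNA-Phe-GAA-3-1 (tRNA-Phe-3-1-/-). Each genotype had 3 samples per tissue, lettered A to C, giving 24 samples. The deletions were made in the whole animal, and each mutant genotype carried 1 of them and no other allele or treatment. The study describes wild-type animals as littermates matched for age, and also states that mice came from different litters. The labels do not give litters, and the same 3 WT samples per tissue served all 3 lines. The lines were examined at 10 weeks of age. The hour at which tissue was taken, and whether the RNA came from whole brain or from a part of it, are not given in the labels.

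Immediate early genes are transcribed within minutes of a stimulus, without new protein being made first. In neurons, calcium entry through synaptic receptors and voltage-gated channels activates kinases that phosphorylate CREB and the partners of SRF, which are already bound at these genes. Their RNAs are short-lived, so a tissue level reflects the recent past of the animal, and several members are also induced by growth factors or stress outside the nervous system. Fos, Fosb and Junb encode subunits of the AP-1 transcription factor. Egr1, Egr2 and Egr4 encode zinc-finger transcription factors, Npas4 encodes a bHLH-PAS transcription factor that is largely restricted to neurons and responds to calcium, and Nr4a1 encodes an orphan nuclear receptor. Arc encodes a postsynaptic protein that promotes removal of AMPA receptors, and Dusp1 encodes a phosphatase that inactivates MAP kinases.

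The sequences just upstream of the start are shown for 5 members that passed the test in a comparison of mutant genotypes, since the binding sites of CREB and SRF lie in such regions. Each line gives the 250 bases before the RefSeq transcription start, in build GRCm38.p6, 5′ to 3′ on the strand of the gene. Capitals mark the CRE core TGACG on either strand and the CArG box, the site of SRF. For Egr2, which has 5 listed starts, the middle one was used. Fosb, Npas4 and Nr4a1 (searched below but not printed) each have 1 listed start. That start lies inside the gene span given below, so these genes extend farther upstream than the start used.
Fos (chr12:85473640-85473889, plus strand): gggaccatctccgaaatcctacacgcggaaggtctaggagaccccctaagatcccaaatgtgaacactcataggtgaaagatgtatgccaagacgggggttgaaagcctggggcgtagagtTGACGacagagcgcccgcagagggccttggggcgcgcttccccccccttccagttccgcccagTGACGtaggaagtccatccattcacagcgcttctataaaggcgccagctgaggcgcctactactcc
Fosb (chr7:19310046-19310295, minus strand): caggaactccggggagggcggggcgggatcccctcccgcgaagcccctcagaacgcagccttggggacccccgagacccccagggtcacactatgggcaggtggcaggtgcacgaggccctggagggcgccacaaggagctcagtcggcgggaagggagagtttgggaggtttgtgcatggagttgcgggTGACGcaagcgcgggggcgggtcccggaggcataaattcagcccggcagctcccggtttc
Egr2 (chr10:67537619-67537868, plus strand): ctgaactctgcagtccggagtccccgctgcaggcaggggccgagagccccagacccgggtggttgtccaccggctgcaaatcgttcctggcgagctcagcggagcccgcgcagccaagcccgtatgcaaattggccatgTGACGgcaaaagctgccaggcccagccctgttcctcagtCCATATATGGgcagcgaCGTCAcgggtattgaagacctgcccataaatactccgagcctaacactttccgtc
Egr4 (chr6:85513590-85513839, minus strand): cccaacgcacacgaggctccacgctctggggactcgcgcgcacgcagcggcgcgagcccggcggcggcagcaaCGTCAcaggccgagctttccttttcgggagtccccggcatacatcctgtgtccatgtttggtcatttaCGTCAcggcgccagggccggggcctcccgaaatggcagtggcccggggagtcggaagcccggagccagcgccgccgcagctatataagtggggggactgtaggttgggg
Npas4 (chr19:4989972-4990221, minus strand): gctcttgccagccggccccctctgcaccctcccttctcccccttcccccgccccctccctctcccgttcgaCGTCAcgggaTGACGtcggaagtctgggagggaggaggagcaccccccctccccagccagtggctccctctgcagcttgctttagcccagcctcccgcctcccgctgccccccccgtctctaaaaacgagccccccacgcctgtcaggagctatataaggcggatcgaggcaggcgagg

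In the same build the RefSeq genes lie on 9 chromosomes, Nr4a1 and Arc sharing chromosome 15, and the files list them under these Ensembl identifiers. The AP-1 genes are Fos (ENSMUSG00000021250.13) at chr12:85473890-85477274, Fosb (ENSMUSG00000003545.3) at chr7:19302696-19310118 and Junb (ENSMUSG00000052837.6) at chr8:84976909-84978748. The Egr genes are Egr1 (ENSMUSG00000038418.7) at chr18:34861207-34864956, Egr2 (ENSMUSG00000037868.15) at chr10:67534469-67542188 and Egr4 (ENSMUSG00000071341.4) at chr6:85511121-85513589. The others are Arc (ENSMUSG00000022602.14) at chr15:74669081-74672570, Npas4 (ENSMUSG00000045903.9) at chr19:4984353-5003439, Nr4a1 (ENSMUSG00000023034.7) at chr15:101253902-101274795 and Dusp1 (ENSMUSG00000024190.7) at chr17:26505591-26508472.

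The CRE core was present in the upstream bases of 8 of the 8 members searched, against 17.8% of 32851 windows of the same length. Arc had no upstream window to search and Egr1 was set aside from the search, so no count of sites here covers them. The cores lay at −66 to −62 and −129 to −125 in Fos, at −60 to −56 in Fosb and at −179 to −175 and −169 to −165 in Npas4, counted back from the start. The full palindrome TGACGTCA, which contains 2 overlapping cores, was found in Dusp1 only among the 8, against 1.55% of windows. A CArG box was found in Egr2, at −72 to −63, and in 1.47% of windows. The AP-1 site TGANTCA was found in none of the 8 and in 6.75% of windows. A match describes the letters only, and a site beyond these bases would not have been seen.

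Depth ranged from 30365760 to 46225360 reads per sample in brain and from 32276896 to 51584522 in liver. Pan-neuronal markers such as Snap25 (at least 32419 normalised counts in every brain) and hepatocyte markers such as Alb (at least 1308110 in every liver) matched the labelled tissues. Alb was also read in the brains, at 3.23 to 877 normalised counts. In tRNA-Phe-3-1-/- brains 6 of the 7 hepatocyte markers were below WT without overlap, against 8.48% of all genes, and 0 were called. Levels of regional and cell type markers differed between brain samples. The summed level of 6 markers of forebrain excitatory neurons was 19307 in tRNA-Phe-3-1-/- sample C and 39619 to 64677 in the other 11. The summed level of thalamic and hindbrain markers was 14413 in tRNA-Phe-2-1-/- sample C, 13230 in tRNA-Phe-3-1-/- sample C and at most 5609 elsewhere. The same 2 samples had the highest choroid plexus sums, 52958 and 26814. Of the 6 cerebellar markers, Gabra6 ranged over the brains from 0 to 215 normalised counts (median 5.26). Pcp2 ranged from 0 to 96.8 (median 5.43) and Cbln3 from 5.01 to 365 (median 14.8). Neurod1 was at least 137, Zic1 at least 263 and Calb1 at least 2783 in every brain. The summed level of 6 markers of striatal projection neurons was 3927 to 15368 in WT, 3483 to 35369 in tRNA-Phe-1-1-/-, 9425 to 37624 in tRNA-Phe-2-1-/- and 16187 to 26244 in tRNA-Phe-3-1-/-. In tRNA-Phe-3-1-/- 5 of these 6 were above WT without overlap, against 7.93% of all genes, and 0 were called by limma. Oligodendrocyte markers summed to 108375 to 129244 in WT, 40945 to 78001 in tRNA-Phe-1-1-/-, 59603 to 143481 in tRNA-Phe-2-1-/- and 73459 to 158243 in tRNA-Phe-3-1-/-, and all 6 were below WT without overlap in tRNA-Phe-1-1-/- (12.4% of all genes), with 1 called lower. Blood markers summed to 15411 to 28325 in WT, 7629 to 9636 in tRNA-Phe-1-1-/-, 6618 to 15625 in tRNA-Phe-2-1-/- and 16792 to 37083 in tRNA-Phe-3-1-/-, and 5 of 6 were above tRNA-Phe-1-1-/- without overlap in tRNA-Phe-3-1-/- (11.1% of all genes), with 0 called. In bulk tissue, fewer cells of a type and less RNA per cell cannot be told apart.

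The AP-1 members gave the first contrast between genotypes in brain. Fos measured 941, 483 and 1501 normalised counts in WT samples A to C, 1290, 850 and 1388 in tRNA-Phe-1-1-/-, 344, 243 and 789 in tRNA-Phe-2-1-/- and 212, 374 and 160 in tRNA-Phe-3-1-/-. Every tRNA-Phe-3-1-/- brain was thus below every WT and every tRNA-Phe-1-1-/- brain. Fos fell by 2.30 on the log2 scale in tRNA-Phe-3-1-/- relative to tRNA-Phe-1-1-/- (SE 0.49, n = 3 per genotype, adjusted p = 0.0408 by limma). Fosb measured 137, 144 and 196 in WT, 449, 241 and 396 in tRNA-Phe-1-1-/-, 110, 107 and 126 in tRNA-Phe-2-1-/- and 85.1, 144 and 79.0 in tRNA-Phe-3-1-/-. All 3 tRNA-Phe-1-1-/- brains were above the other 9 for this gene. Fosb fell by 1.81 (SE 0.27, adjusted p = 0.0134 by limma) in tRNA-Phe-3-1-/- and fell by 1.61 (SE 0.27, adjusted p = 0.0306) in tRNA-Phe-2-1-/-, each against tRNA-Phe-1-1-/-. Junb measured 2117, 1163 and 3094 in WT, 2524, 1877 and 3067 in tRNA-Phe-1-1-/-, 1164, 969 and 1766 in tRNA-Phe-2-1-/- and 862, 1148 and 630 in tRNA-Phe-3-1-/-. The tRNA-Phe-3-1-/- brains lay below all WT and tRNA-Phe-1-1-/- brains, but the log2 difference from tRNA-Phe-1-1-/- of −1.51 (SE 0.35) had an adjusted p of 0.0540 by limma.

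**Figure D1:**
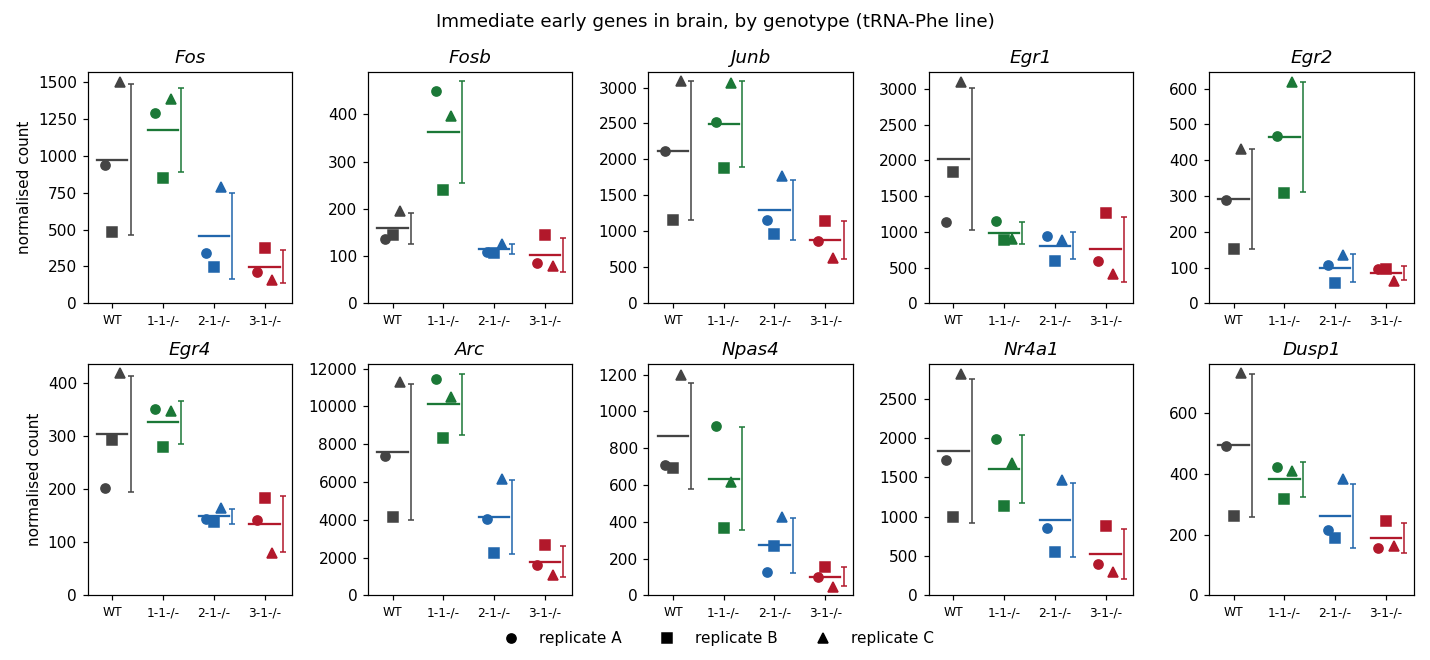
Normalised counts (vertical axes, linear, from 0) of the 10 genes in each brain sample, by genotype (horizontal axes). Symbols are single samples, horizontal lines the means of 3 samples and vertical bars 1 SD; Arc, for example, lies between 1096 and 2692 in tRNA-Phe-3-1-/- and between 8339 and 11476 in tRNA-Phe-1-1-/-.

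Among the Egr genes, Egr2 and Egr4 were called lower in tRNA-Phe-3-1-/- than in tRNA-Phe-1-1-/-, and Egr1 was not. Egr2 measured 290, 153 and 431 in WT, 467, 309 and 617 in tRNA-Phe-1-1-/-, 108, 56.9 and 134 in tRNA-Phe-2-1-/- and 94.8, 96.0 and 62.2 in tRNA-Phe-3-1-/-. All 6 brains of tRNA-Phe-3-1-/- and tRNA-Phe-2-1-/- were below the 6 of the other genotypes. Relative to tRNA-Phe-1-1-/-, Egr2 fell by 2.24 (SE 0.41, adjusted p = 0.0444 by limma) in tRNA-Phe-2-1-/- and fell by 2.42 (SE 0.41, adjusted p = 0.0196) in tRNA-Phe-3-1-/-. Egr4 measured 202, 293 and 419 in WT, 351, 280 and 347 in tRNA-Phe-1-1-/-, 144, 138 and 165 in tRNA-Phe-2-1-/- and 141, 184 and 79.0 in tRNA-Phe-3-1-/-. Egr4 fell by 1.34 (SE 0.30, adjusted p = 0.0485 by limma) in tRNA-Phe-3-1-/- relative to tRNA-Phe-1-1-/-. Egr1 was the exception, with 1135, 1841 and 3099 in WT, 1156, 892 and 894 in tRNA-Phe-1-1-/-, 936, 592 and 891 in tRNA-Phe-2-1-/- and 592, 1265 and 405 in tRNA-Phe-3-1-/-. Its 3 mutant groups overlapped one another, and the difference between tRNA-Phe-3-1-/- and tRNA-Phe-1-1-/- was −0.53 (95% interval −1.44 to 0.37).

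In tRNA-Phe-3-1-/-, Npas4 and Arc were farther from WT and from tRNA-Phe-1-1-/- than the other 8 members on the log2 scale. Npas4 measured 709, 693 and 1201 in WT, 924, 368 and 614 in tRNA-Phe-1-1-/-, 126, 267 and 425 in tRNA-Phe-2-1-/- and 102, 152 and 48.4 in tRNA-Phe-3-1-/-. The tRNA-Phe-3-1-/- mean of 101 ± 51.8 (SD, n = 3) was 8.60-fold below the WT mean of 868 ± 289, with no overlap between the groups. The log2 difference of −3.19 (SE 0.51) had an adjusted p of 0.120 by limma, and against tRNA-Phe-1-1-/- Npas4 fell by 2.69 (SE 0.51, adjusted p = 0.0269). Arc measured 7379, 4125 and 11320 in WT, 11476, 8339 and 10513 in tRNA-Phe-1-1-/-, 4027, 2220 and 6139 in tRNA-Phe-2-1-/- and 1590, 2692 and 1096 in tRNA-Phe-3-1-/-. Arc was lower in each tRNA-Phe-3-1-/- brain than in any WT brain, by 4.24-fold between means, and fell by 2.58 (SE 0.43, adjusted p = 0.0190 by limma) relative to tRNA-Phe-1-1-/-.

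Nr4a1 and Dusp1 also had their lowest mean in tRNA-Phe-3-1-/-, without passing the test. Nr4a1 measured 1714, 993 and 2810 in WT, 1983, 1135 and 1685 in tRNA-Phe-1-1-/-, 856, 551 and 1467 in tRNA-Phe-2-1-/- and 403, 885 and 292 in tRNA-Phe-3-1-/-. Dusp1 measured 490, 261 and 731 in WT, 423, 316 and 408 in tRNA-Phe-1-1-/-, 214, 189 and 383 in tRNA-Phe-2-1-/- and 156, 244 and 163 in tRNA-Phe-3-1-/-. For both genes the tRNA-Phe-3-1-/- brains did not overlap those of WT, at log2 differences of −1.84 (SE 0.48) for Nr4a1 and −1.30 (SE 0.36) for Dusp1.

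Counted over the members, the comparison of tRNA-Phe-3-1-/- with tRNA-Phe-1-1-/- called 6 of 10 lower, against 1.41% of all genes tested called lower, and 9 of 10 did not overlap, against 12.4% of all genes. The median difference of the members was −1.77, against 0.0026 for all genes. This count depended on single libraries. It was 1 without tRNA-Phe-3-1-/- sample A, 1 without tRNA-Phe-3-1-/- sample C (Fosb, adjusted p = 0.0432 by limma), 1 without tRNA-Phe-1-1-/- sample A, 2 without tRNA-Phe-1-1-/- sample B and 0 without tRNA-Phe-1-1-/- sample C, and it was 0 when only these groups were fitted. Without both tRNA-Phe-3-1-/- sample C and tRNA-Phe-2-1-/- sample C it was 2 (Fosb and Arc), and with the forebrain excitatory marker score as a covariate it was 3 (Fosb, Egr2 and Arc). Without tRNA-Phe-3-1-/- sample C all 10 members were still lower, with Arc at −2.28 and Npas4 at −2.24. The comparison of tRNA-Phe-2-1-/- with tRNA-Phe-1-1-/- called 2 of 10 lower (0.395% of all genes), and 6 did not overlap (11.2%). That count was 0 or 1 when any 1 of 9 of the 12 brains was left out, the exceptions being WT samples B and C and tRNA-Phe-3-1-/- sample C.

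Against WT, all 10 members were lower in tRNA-Phe-3-1-/- and in tRNA-Phe-2-1-/-, and 0 were called by limma in either, as were 0% of all genes. The WT samples enter both comparisons, so these counts are not independent. In tRNA-Phe-3-1-/- the median was −1.58, 8 of 10 did not overlap WT (8.48% of all genes were lower without overlap) and 10 had an unadjusted p under 0.05 (6.96%). DESeq2 on the recovered reads called 8 of the 10 lower, against 1.2% of the genes to which it gave an adjusted p, with Npas4 at −3.10 (adjusted p = 8.99e-07 by DESeq2) and Arc at −2.08 (0.00427), whereas edgeR called 0 members and 0% of all genes. In tRNA-Phe-2-1-/- the median was −0.95, 5 did not overlap (5.43%) and 6 had an unadjusted p under 0.05 (2.54%). In tRNA-Phe-1-1-/- 6 of 10 were higher and 4 lower, with a median of 0.23. Here 0 members were called (1.05% of all genes), 1 was lower and 1 higher at an unadjusted p under 0.05 (7.88% and 8.05%). Fosb differed by 1.15 (SE 0.27), with no overlap and an adjusted p of 0.0759 by limma and 0.00281 by DESeq2, which called 2.56% of genes higher, and 12.8% of all genes were higher without overlap. Leaving out tRNA-Phe-3-1-/- sample B gave 1 called member in this comparison and 1 in tRNA-Phe-3-1-/- against WT. Between tRNA-Phe-3-1-/- and tRNA-Phe-2-1-/- 0 members were called by limma, edgeR or DESeq2 (0% of all genes by limma), 2 had an unadjusted p under 0.05 (5.76% of all genes were lower at that level), and the median was −0.50. The test over all 4 genotypes called Fosb (adjusted p = 0.0398 by limma), Egr2 (0.0454) and Npas4 (0.0473), against 0.634% of all genes, and called 0 or 1 when any 1 of 10 brains was left out, the exceptions being tRNA-Phe-2-1-/- sample C (2) and tRNA-Phe-3-1-/- sample B (3).

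**Figure D2:**
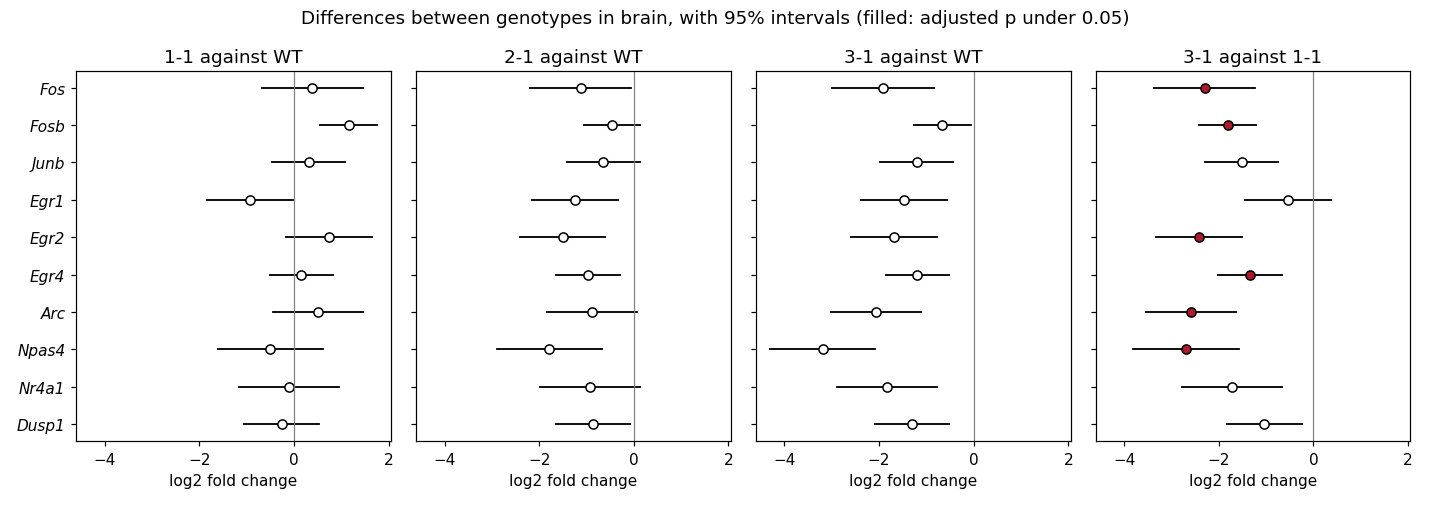
Log2 fold changes (horizontal axes) of the 10 genes in brain for 4 comparisons of genotypes, with 95% intervals from limma. Filled points have an adjusted p under 0.05; all 10 points lie below 0 for tRNA-Phe-3-1-/- and for tRNA-Phe-2-1-/- against WT, and 6 are filled for tRNA-Phe-3-1-/- against tRNA-Phe-1-1-/-.

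The members also varied between animals of 1 genotype. The residual SD of log2 values lay between 0.37 for Fosb and 0.72 for Npas4, at percentiles 73.3 to 93.1 of all genes tested, whose median was 0.21. After subtraction of genotype means, all 9 other members correlated with Fos over the 12 brains by Pearson's r. Pearson's r was 0.968 for Arc, 0.968 for Nr4a1, 0.965 for Junb and 0.962 for Dusp1 (permutation p = 1e-05 each, the smallest that 100000 resamples can give, adjusted over 9 pairs p = 2.25e-05), and Spearman's rho was 0.923 to 0.965. It was 0.895 for Egr2 (rho 0.909, permutation p = 9e-05, adjusted 0.000162), 0.712 for Fosb (rho 0.671, permutation p = 0.0096, adjusted 0.0132) and 0.711 for Npas4 (rho 0.727, permutation p = 0.0102, adjusted 0.0132). It was lowest for Egr1 (0.611, rho 0.580, permutation p = 0.0358, adjusted 0.0389) and Egr4 (0.601, rho 0.678, permutation p = 0.0389, adjusted 0.0389). These p-values belong to Pearson's r. By Spearman's rho Egr1 did not pass (permutation p = 0.0529, adjusted 0.0529), and the adjusted p of the other members was at most 0.0228. Without the 2 brains farthest from the median of Fos, WT sample B and tRNA-Phe-2-1-/- sample C, r was 0.671 to 0.971. Permuting within genotypes only, a choice made after seeing the data, left Egr1 (exact p = 0.0949) and Egr4 (exact p = 0.0818) above the threshold. It gave exact p = 0.000772 for Junb, 0.00154 for Arc and Nr4a1, 0.00309 for Dusp1 and 0.00386 for Egr2. For Fosb it gave 0.00849 and for Npas4 0.0378 (adjusted 0.0486). The earlier p-values came from permuting over all 12 brains, which ignores the subtraction of genotype means. They were smaller for every member but Fosb. The 1296 arrangements within genotypes cannot give a p below 0.000772. For Junb, Arc, Nr4a1, Dusp1 and Egr2, whose earlier p lay below that value, no other order was possible. All members of a library share its normalisation and its tissue sample.

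**Figure D3:**
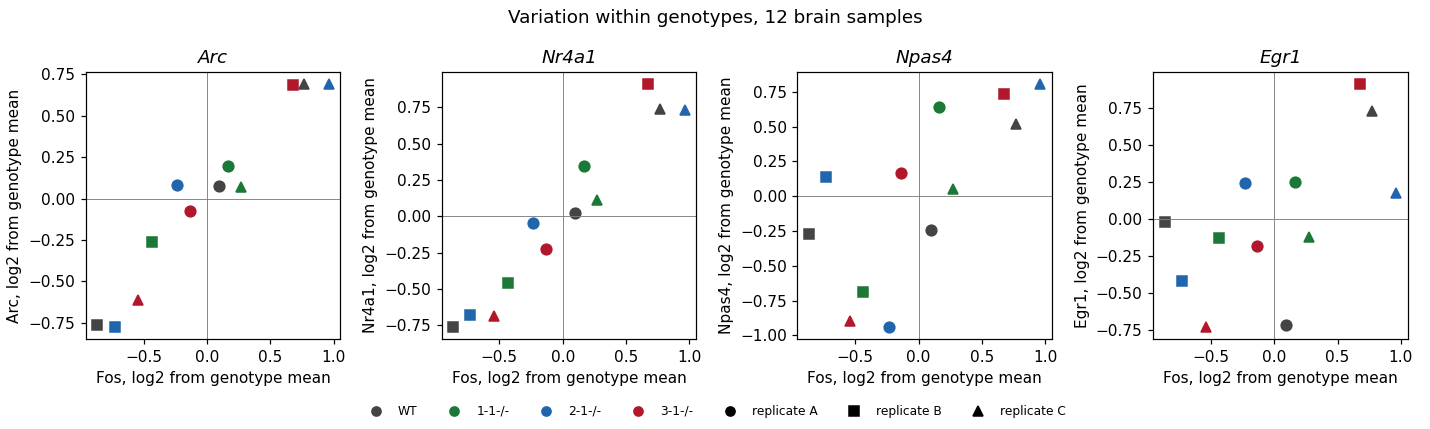
Log2 deviations from the genotype mean of Arc, Nr4a1, Npas4 and Egr1 (vertical axes) against that of Fos (horizontal axes) in the 12 brain samples, coloured by genotype. The points of Arc and Nr4a1 lie close to a line (r = 0.968 for both), and those of Npas4 (0.711) and Egr1 (0.611) scatter more.

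The 8 genes whose log2 values followed the mean of the centred members most closely over the 12 brains, among 15147 genes with a mean of at least 50, were Dusp6 (r = 0.964), Arl5b (0.953), Btg2 (0.952), Gm47075 (0.943), Gm47088 (0.941), 1700016P03Rik (0.932), Gadd45a (0.930) and Msl3 (0.926). Dusp6 encodes a phosphatase of ERK and Btg2 an antiproliferative early response gene. With genotype means subtracted, r was 0.967 for Dusp6 and 0.751 to 0.887 for the others. Per kilobase of the canonical transcript, the WT brain level was highest for Arc (2489 ± 1179 normalised counts per kb, SD, n = 3), followed by Junb (1174 ± 534) and Nr4a1 (722 ± 359), and lowest for Fosb (42.0 ± 8.61). Neighbours in this order overlapped in their samples, except Npas4 (lowest 191) and Egr2 (highest 145).

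Other genes of the response moved in the same comparison. Of 23 tested rapid response genes outside the members, 6 were called lower in tRNA-Phe-3-1-/- than in tRNA-Phe-1-1-/- (median −0.87), against 1.41% of all genes. Csrnp1, a nuclear transcription regulator, had 395 ± 2.66 normalised counts in tRNA-Phe-1-1-/- and 145 ± 35.6 in tRNA-Phe-3-1-/- (SD, n = 3 each), and fell by 1.47 (SE 0.17, adjusted p = 0.00415 by limma). Fosl2, another AP-1 subunit, fell by 1.21 (SE 0.20, adjusted p = 0.0187 by limma). Maff, a small Maf protein, fell by 2.07 (adjusted p = 0.0263 by limma), and rose by 2.38 in tRNA-Phe-1-1-/- relative to WT (SE 0.39, adjusted p = 0.0230), where Maff and Sik1 were the 2 called higher. Of 22 delayed and effector genes, 9 were called lower and all 22 were lower (median −0.76), against 1.41% of all genes called lower and 49.5% of all genes lower. They included Arl4d (−1.42, adjusted p = 0.0143 by limma), Gadd45b, linked to DNA demethylation and stress responses (−1.16, adjusted p = 0.0184), and Bhlhe40, a transcriptional repressor (−0.97, adjusted p = 0.0254). Of 20 genes of upstream signalling, Srf alone was called lower (−0.67, adjusted p = 0.0266 by limma), with Mapk3 at 0.15 and Grin2a at −0.42. Against WT, 0 rapid and 0 delayed genes were called in tRNA-Phe-3-1-/-, as were 0% of all genes, at medians of −0.34 and −0.51. In tRNA-Phe-1-1-/- against WT the medians were 0.17 and 0.49, and 9 of 23 and 10 of 22 were above WT without overlap (12.8% of all genes). In tRNA-Phe-2-1-/- against tRNA-Phe-1-1-/- the medians were −0.69 and −0.57.

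Genes of the glucocorticoid response were higher in tRNA-Phe-1-1-/-. Of 12 tested, 9 rose relative to WT (0.624% of all genes were called higher), with a median of 0.96. Plin4, a lipid droplet protein, had 862 ± 239 normalised counts in tRNA-Phe-1-1-/- and 87.7 ± 14.5 in WT (SD, n = 3 each) and rose by 3.25 (SE 0.39, adjusted p = 0.0107 by limma). Fkbp5, a co-chaperone of the glucocorticoid receptor, rose by 1.54 (SE 0.17, adjusted p = 0.00813 by limma), and Nfkbia, an inhibitor of NF-κB, by 0.92 (SE 0.13, adjusted p = 0.0160). The summed level of the 12 was 16771 to 22750 in tRNA-Phe-1-1-/- and 8701 to 10925 in the other 9 brains. Relative to tRNA-Phe-1-1-/-, 9 of the 12 were called lower in tRNA-Phe-3-1-/- (median −1.06), against 1.41% of all genes. In tRNA-Phe-2-1-/- 6 of the 12 were called lower than in tRNA-Phe-1-1-/- (median −1.02), against 0.395% of all genes. The part of these genes in the levels of the immediate early genes was not tested. Nor was that of the cerebellar, thalamic, choroid plexus, striatal, oligodendrocyte, blood and hepatocyte markers. The forebrain score entered a fit as a covariate, chosen after seeing the data, and its part was not otherwise tested.

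**Figure D4:**
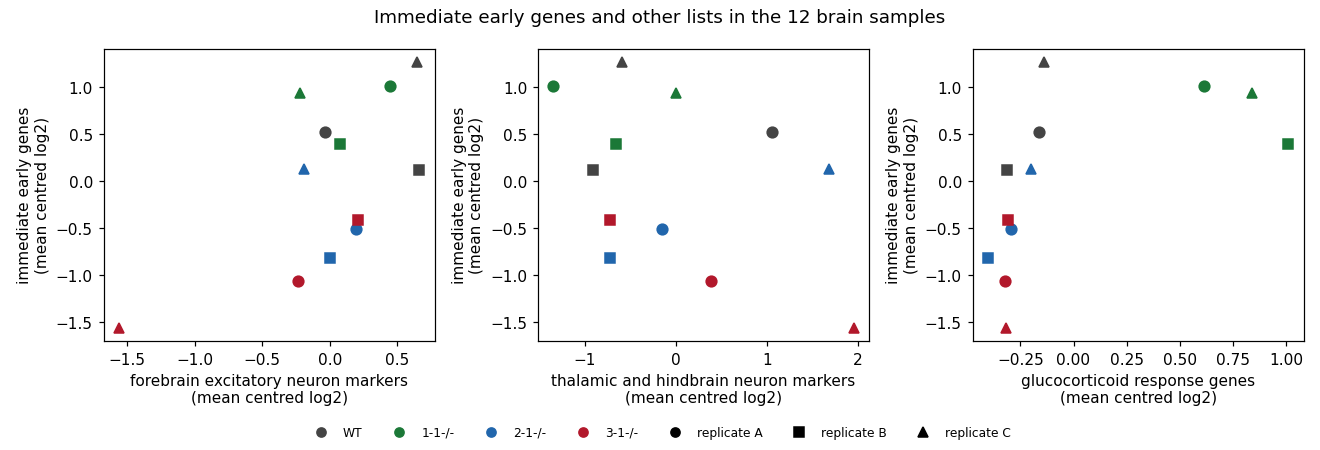
Mean centred log2 value of the 10 immediate early genes (vertical axes) against that of forebrain excitatory neuron markers, thalamic and hindbrain neuron markers and glucocorticoid response genes (horizontal axes) in the 12 brain samples. The tRNA-Phe-3-1-/- sample C, lowest for the early genes (−1.56), is also lowest for the forebrain markers (−1.56), and the 3 tRNA-Phe-1-1-/- samples are set apart on the glucocorticoid axis (0.62 to 1.01).

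In liver, Egr4 had 0 reads in all 12 samples, where up to 3 reads per library remain possible, and Npas4 had 1 read in 1 sample. Arc and Egr2 were at most 11.3 normalised counts and Fosb at most 30.1, so these 5 were not tested. Junb measured 715, 439 and 1992 in WT, 2319, 2165 and 1566 in tRNA-Phe-1-1-/-, 402, 537 and 468 in tRNA-Phe-2-1-/- and 1172, 702 and 865 in tRNA-Phe-3-1-/-. Junb fell by 2.09 (SE 0.42, adjusted p = 0.00757 by limma) in tRNA-Phe-2-1-/- relative to tRNA-Phe-1-1-/-. Fos measured 28.3, 21.7 and 109 in WT, 141, 91.7 and 58.3 in tRNA-Phe-1-1-/-, 10.4, 19.6 and 20.3 in tRNA-Phe-2-1-/- and 49.9, 14.6 and 13.1 in tRNA-Phe-3-1-/-. Relative to tRNA-Phe-1-1-/-, Fos fell by 2.43 (SE 0.64, adjusted p = 0.0252 by limma) in tRNA-Phe-2-1-/- and fell by 2.04 (adjusted p = 0.0497) in tRNA-Phe-3-1-/-. These were 2 of 5 and 1 of 5 tested members, against 7.37% and 7.45% of all 15856 genes called lower. The first count was 1 without tRNA-Phe-1-1-/- sample A or B or any 1 of the tRNA-Phe-2-1-/- livers, and the second was 0, 2 or 3 when any 1 of 9 livers was left out, the exceptions being WT sample A, tRNA-Phe-1-1-/- sample C and tRNA-Phe-3-1-/- sample A. Dusp1 measured 1307, 226 and 1001 in WT and 148, 156 and 169 in tRNA-Phe-3-1-/-, at −2.08 (SE 0.55, adjusted p = 0.0994 by limma). Egr1 and Nr4a1 passed no test, with residual SDs of 1.31 and 1.23 on the log2 scale. Against WT, 0 of 5 members were called in any mutant liver by limma or edgeR, against 17.3% of all genes called by limma in tRNA-Phe-1-1-/-, 0.132% in tRNA-Phe-2-1-/- and 0.883% in tRNA-Phe-3-1-/-. At an unadjusted p under 0.05, 1 was higher in tRNA-Phe-1-1-/- (15.5% of all genes), 1 lower in tRNA-Phe-2-1-/- (7.79%) and 2 lower in tRNA-Phe-3-1-/- (8.57%). DESeq2 called 1 lower in tRNA-Phe-3-1-/- (Dusp1), against 3.3% of the genes to which it gave an adjusted p. Without WT sample B, limma called 1 in tRNA-Phe-1-1-/- and 1 in tRNA-Phe-3-1-/-, and without WT sample C 1 in tRNA-Phe-1-1-/-.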

How the data were processed

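Total RNA of brain and liver from 12 samples each was sequenced by the authors. Per the labels and the study's methods, reads were trimmed with Trim Galore and cutadapt, aligned with STAR to GRCm38.p6 with GENCODE annotation, quantified with Salmon and normalised with DESeq2 per tissue. The deposited values are a normalised signal per gene, that is counts divided by size factors. Dividing each column by its smallest positive value gave whole reads for 100% of values (relative tolerance 1e-06). The authors' tables of comparisons (means, fold changes and s-values) were not used.

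Symbols were matched by Ensembl ID (93.2% of 55434). Values were tested as log2(value + 1) with limma 3.58.1 (R 4.3.3), with a variance trend, 4 genotypes in 1 fit per tissue, genes with a mean of at least 10, and Benjamini-Hochberg adjustment over all genes at 0.05, so fold changes are on the log2(value + 1) scale and understate changes of low genes. In liver the recovered reads behind a value were few for Fos (13 to 150). edgeR 4.0.16 and DESeq2 1.42.0 on recovered reads were alternatives. An exact test of 3 against 3 cannot go below p = 0.1. In simulated tRNA-Phe-3-1-/- against WT brains (19228 genes), 89% of genes changed by 2 on the log2 scale and 96% of those changed by 3 were recovered. The simulated spread followed the average trend for a gene's level. The members varied more between brains of 1 genotype than most genes, so these shares do not apply to them. All 10 members were named, with up to 3 genes of each other list by the lowest p of the test over genotypes. The members and lists were chosen with earlier results of these data known. Per the study's methods RNA came from at least 3 mice per genotype. The labels do not tie samples to animals, so p-values measure the spread between these samples.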

Additional observations from a re-analysis of the deposited data

How the results depend on the processing

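Among the members in brain, the number called for tRNA-Phe-3-1-/- against tRNA-Phe-1-1-/- (6) was 3 without the variance trend, 0 with only the groups compared, 2 without the C samples of tRNA-Phe-3-1-/- and tRNA-Phe-2-1-/- and 3 with the forebrain score as covariate (both chosen after seeing the data), and 0 to 7 when single libraries were left out. For tRNA-Phe-2-1-/- against tRNA-Phe-1-1-/- (2) it was 0 without the trend, 0 with only the groups compared, 1 without the C samples and 0 to 2 without single libraries. For the test over genotypes (3) it was 1 without the filter, 0 without the trend, 1 without the C samples and 0 to 3 without single libraries. Against WT, DESeq2 called 1 member in tRNA-Phe-1-1-/- and 8 in tRNA-Phe-3-1-/- (2.56% of genes higher and 1.2% lower by DESeq2, respectively), the covariate gave 1 in tRNA-Phe-1-1-/-, and single libraries left out gave 0 to 1 in each. In liver, members called for tRNA-Phe-3-1-/- against tRNA-Phe-1-1-/- (1) were 0 with a pseudocount of 0.1, no filter, no trend or edgeR, 2 with only the groups compared or DESeq2, and 0 to 3 without single libraries. For tRNA-Phe-2-1-/- against tRNA-Phe-1-1-/- (2) they were 1 to 2 without single libraries, and for the test over genotypes (1) 0 without the trend and 0 to 2. A mean of at least 50 left Fos (liver mean 48.2) untested. Members called were then 0 for tRNA-Phe-3-1-/- and 1 for tRNA-Phe-2-1-/-, each against tRNA-Phe-1-1-/-, which is no check of Fos. Against WT they were 1 in tRNA-Phe-3-1-/- by DESeq2 (3.3% of genes lower), and 0 to 1 without single libraries in tRNA-Phe-3-1-/- and in tRNA-Phe-1-1-/-. The number of members correlated with Fos by Pearson's r (9) was 7 to 9 throughout. The causes were not tested.

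The replicate letters did not pair the samples (7 of 18 same-letter pairs of brains and 3 of 18 of livers had a correlation over 0.1). With the replicate block, 1 member was called in brain for tRNA-Phe-2-1-/- against tRNA-Phe-1-1-/-, 1 in the test over genotypes, and 0 in liver for tRNA-Phe-3-1-/- against tRNA-Phe-1-1-/-.

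Log2 differences that changed sign were those not called. Without single libraries, tRNA-Phe-1-1-/- against WT in brain ranged from −0.66 to 0.083 for Dusp1, −0.11 to 0.41 for Egr4, −0.047 to 0.77 for Fos, −0.069 to 0.64 for Junb and −0.49 to 0.26 for Nr4a1. For tRNA-Phe-3-1-/- against tRNA-Phe-2-1-/- in brain it ranged from −0.69 to 0.13 for Egr1, −0.53 to 0.078 for Egr2 and −0.49 to 0.12 for Egr4. In liver the ranges were −1.23 to 0.033 for Dusp1 and −0.80 to 0.71 for Nr4a1 (tRNA-Phe-1-1-/- against WT), −0.40 to 1.11 for Egr1 (tRNA-Phe-3-1-/- against tRNA-Phe-1-1-/-), −0.21 to 0.72 for Fos and −0.62 to 0.54 for Nr4a1 (tRNA-Phe-3-1-/- against tRNA-Phe-2-1-/-) and −0.42 to 0.67 for Junb (tRNA-Phe-3-1-/- against WT), where edgeR and DESeq2 both gave −0.20. Without the C samples, tRNA-Phe-3-1-/- against tRNA-Phe-2-1-/- in brain was 0.030 for Fosb, 0.22 for Egr1, 0.28 for Egr2 and 0.19 for Egr4. With the covariate it was 0.23 for Egr1 and 0.12 for Egr4, and Nr4a1 was 0.062 for tRNA-Phe-1-1-/- against WT and Egr1 was 0.013 for tRNA-Phe-3-1-/- against tRNA-Phe-1-1-/-.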

Other observations

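In the coding sequence of the canonical transcript (GENCODE vM39, a later release than the one used for the files), phenylalanine codons made up 2.02% of Arc, 2.33% of Junb, 3.25% of Fosb, 3.40% of Egr2, 3.95% of Fos, 4.88% of Egr1, 5.18% of Dusp1, 5.36% of Npas4, 5.49% of Nr4a1 and 5.65% of Egr4, against a median of 3.60% over 14877 tested genes. These shares were looked up after the expression values had been seen and were not related to them. In liver, the summed level of the 12 glucocorticoid response genes was 72324 to 108856 in tRNA-Phe-1-1-/- and 24331 to 43968 in the other genotypes, with 8 called higher and 1 lower relative to WT by limma, against 8.27% and 9.08% of all genes.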
